A study of Mus musculus with 27 samples.

Results

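The subject is 10 genes for the contractile proteins of skeletal muscle fibres, followed in male *Mlx*KO mice aged 5 or 20 months. They were chosen by symbol, 10 of the 36333 genes counted. The fast isoforms were the myosin heavy chains *Myh1*, *Myh2* and *Myh4* and the troponins *Tnnt3* and *Tnni2*. The slow isoforms were the myosin heavy chain *Myh7*, the myosin light chains *Myl2* and *Myl3* and the troponins *Tnnt1* and *Tnni1*. Skeletal muscle was taken from 4 mice at 5 months (labelled X5S4299, X5S5001, X5S5238 and X5S5239) and from 5 mice at 20 months (X18S56, X18S57, X18S58, X18S59 and X18S60), and 9 adipose tissues and 9 livers completed the 27 samples. All mice at both ages carried floxed *Mlx* alleles and a Cre recombinase fused to the estrogen receptor (CreER) from the B6.129 line Gt(ROSA)26Sortm1(cre/ERT2)Tyj/J. The ubiquitous ROSA26 promoter drives this CreER, present in 2 copies, and tamoxifen was injected over several days after weaning to remove an inner stretch of *Mlx* exons body-wide. By the study's own assay the loss of *Mlx* in skeletal muscle was incomplete and differed between mice. Mlx is the common dimerization partner of the MondoA and ChREBP transcription factors. Mice with intact *Mlx* were not analysed here, so every comparison is between ages or between mice that share the deletion. The labels give the older age as 20 months although their codes begin with X18, and the study's list of animals gives muscles with matching final digits an age slightly under that. The exact older age is therefore uncertain, and 20 months is used here as the label. The labels do not say which muscle was dissected.

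Muscle fibres differ in the speed of their myosin motor. Slow, type I fibres carry the *Myh7* heavy chain with the light chains *Myl2* and *Myl3*, and fast fibres carry *Myh2* (type IIA), *Myh1* (type IIX) or *Myh4* (type IIB), from the slowest to the quickest. Troponin T anchors the calcium switch of the thin filament to tropomyosin and troponin I holds the filament off at rest, and each has a slow form (*Tnnt1*, *Tnni1*) and a fast form (*Tnnt3*, *Tnni2*). Limb muscles of mice are mostly fast, with slow fibres gathered in a few postural muscles.

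The 3 fast heavy chain genes lie in a cluster on chromosome 11 of GRCm38.p6, in the order *Myh2* (67171027 to 67197517), *Myh1* (67200102 to 67224577) and *Myh4* (67237812 to 67260447), whereas *Myh7* lies on chromosome 14 (54970684 to 54994626). How alike their transcripts are bears on every heavy chain value that follows. A coding stretch of 140 bases is the same, base for base, in *Myh1* (chr11:67207552-67208953), *Myh2* (chr11:67180907-67181135) and *Myh4* (chr11:67246503-67248546). It crosses an exon junction, between exons 15 and 16 of 40 in *Myh1* and *Myh2*, 14 and 15 of 39 in *Myh4* and 16 and 17 of 41 in *Myh7*, so the limits given also hold an intron. A read that falls within it could belong to any of the 3 genes. *Myh7* (chr14:54987430-54988343, minus strand) differs from the run at 25 bases, shown in capitals.
*Myh1*, *Myh2* and *Myh4*: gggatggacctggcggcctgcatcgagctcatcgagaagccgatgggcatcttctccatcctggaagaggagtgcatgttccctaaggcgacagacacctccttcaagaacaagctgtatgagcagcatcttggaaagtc
*Myh7*: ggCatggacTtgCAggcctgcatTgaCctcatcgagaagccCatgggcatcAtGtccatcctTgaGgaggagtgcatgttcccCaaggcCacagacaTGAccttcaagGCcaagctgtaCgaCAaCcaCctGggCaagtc

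Of all 50-base words in the transcripts of each gene, 25.4% for *Myh1*, 26.9% for *Myh2*, 18.9% for *Myh4* and 21.2% for *Myh7* also occurred in another gene. For *Myh7* all of these words occurred in *Myh6*, the heart's fast myosin, which was read at 4.04 to 12.3 in the 9 muscles. The shares of the light chains and troponins were 0%. Counts of the heavy chains are therefore less certain than those of the troponins, whose slow and fast forms had in common runs of at most 22 bases (*Tnni1* and *Tnni2*) and 16 bases (*Tnnt1* and *Tnnt3*). *Myh1*, *Tnnt3*, *Myh7* and *Myl2* also overlap other annotated genes, and whether strand was used in counting is not given in the sources used here.

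Values are reads per gene scaled by the authors for each sample, called the deposited value here. The 9 muscles held 14384695 to 17961438 reads on genes, and 3 reads were worth 0.196 to 0.242. *Mlx*, counted over all exons and so no check of the deletion, read 7.04 to 11.6 in the 9 muscles. The 8 genes that define skeletal muscle were all read in every muscle, *Acta1* for example at 25482 to 34371. The heart gene *Myl7* was listed at 0 in all 9, with *Nppa*, *Nppb* and *Tnni3* at most 0.161, 0.0735 and 0.418. *Sbk2*, also on the list of heart genes, read 47.1 to 73.5. Liver markers were present in some muscles: *Alb* was 222 in mouse X5S5238 and 43.1 in mouse X18S58, and 0 to 27.5 in the other 7. The summed value of 9 stress-response genes was 1189 to 13849 at 5 months, highest in mouse X5S5001, and 293 to 764 at 20 months. Samples of a group were separate mice.

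The muscles were fast-type tissue throughout. The 5 fast isoforms took 7.94% to 9.25% of all reads on genes and the 5 slow isoforms 0.0169% to 0.168%, and *Myh4* was the gene with the highest deposited value in each of the 9 muscles. Per kilobase of transcript and summed, the fast isoforms exceeded the slow ones 34.2-fold to 300.1-fold. Here and below, the mixture is of whole tissue, in which fewer fibres of a type and less RNA per fibre cannot be told apart.

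The order of the levels per kilobase of transcript, by the median of the 9 muscles, ran from *Tnnt3* (14562, range 10723 to 18528) through *Myh4* (10606, 8284 to 12898) and *Tnni2* (9322, 7048 to 12774) to *Myh1* (1763, 1564 to 2217) and *Myh2* (400.2, 169 to 486). The slow isoforms followed in the order *Myl3* (117, 45.9 to 285), *Myl2* (64.4, 21.5 to 178), *Tnnt1* (28.98, 11.9 to 148), *Myh7* (17.7, 6.80 to 188) and *Tnni1* (14.02, 6.35 to 92.5). Neighbours in this order overlapped in range except at the steps from *Tnni2* to *Myh1* and from *Myh1* to *Myh2*. Among the fast myosins the order was thus IIB, then IIX, then IIA, without overlap. Over all 9 muscles the spread between mice was wider in the slow isoforms. Their coefficients of variation over the 9 muscles were 62.4% (*Myl3*), 67.7% (*Myl2*), 103% (*Tnnt1*), 112% (*Tnni1*) and 159% (*Myh7*), against 12.4% to 19.3% for the fast isoforms other than *Myh2* (35.2%). Over all 12720 genes tested in muscle the median was 19.5%, and 95% of them lay below 57.8%. These figures include mouse X5S4299, which stood apart in the slow isoforms (below). Among the 5 muscles at 20 months *Myl3* varied by 23.4%, less than *Myh2* (31.6%). The other slow isoforms varied by 48.1% to 60.8% there and the other fast ones by 8.59% to 11.2%.

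*Myh4*, the type IIB motor, read 63805, 68956, 69981 and 77597 at 5 months, in X5S4299, X5S5001, X5S5238 and X5S5239. At 20 months it read 54015, 56552, 66105, 49838 and 52439 in X18S56, X18S57, X18S58, X18S59 and X18S60. The 3 highest muscles were 5-month ones and the 4 lowest were 20-month ones, and the ages overlapped only because mouse X18S58 lay above mouse X5S4299. *Myh1*, the IIX motor, read 9512, 13479, 12209 and 10171 at 5 months and 9957, 12180, 12533, 10265 and 10723 at 20 months, with the mice in that order here and below. These values were interleaved, with the highest and the lowest of the 9 both at 5 months. *Myh2*, the IIA motor, read 2865, 2958, 1703 and 1028 at 5 months and 1377, 2559, 2434, 2548 and 1303 at 20 months. It varied 2.88-fold among the 5-month mice and 1.96-fold among the 20-month mice, more than any other fast isoform, and low and high muscles occurred at both ages.

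The fast troponins moved together from mouse to mouse. *Tnnt3* (chromosome 7, 142498771 to 142516213) read 11570, 11807, 19992 and 14691 at 5 months and 19457, 15712, 17101, 15029 and 16482 at 20 months. *Tnni2*, on the same chromosome at 142441816 to 142444410, read 5473, 5413, 9810 and 6595 at 5 months and 8476, 7159, 7683, 6759 and 7420 at 20 months. For both genes mouse X5S5238 was the highest of the 9, mouse X18S56 the next and X5S4299 and X5S5001 the lowest pair, and the 5 muscles at 20 months stood in the same order.

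The slow isoforms were set apart by a single animal. *Myh7*, the type I motor, read 1171, 107, 102 and 112 at 5 months and 112, 110.5, 42.4, 209 and 60.005 at 20 months. Mouse X5S4299 thus held 10.8 times the median of the other 8 muscles and 5.595 times the next highest, on 15238 reads. The other 3 muscles at 5 months lay within 10 units of each other (106.7 ± 4.97, SD, n = 3), whereas the 5 at 20 months ranged 4.94-fold.

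The slow light chains followed. *Myl2* (chromosome 5, 122092724 to 122113473), the regulatory chain, read 158, 31.7, 57.2 and 19.1 at 5 months and 64.9, 83.2, 30.5, 110.0 and 40.8 at 20 months. *Myl3* (chromosome 9, 110763678 to 110769802), the essential chain, read 267, 43.1, 58.003 and 48.4 at 5 months and 77.5, 129, 120.1, 153 and 109.9 at 20 months. Mouse X5S4299 was again the highest for both, 3.22 and 2.85 times the median of the other 8. Without it, every 20-month muscle held more *Myl3* than every 5-month muscle, and the *Myl2* values still overlapped.

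The slow troponins had their highest and lowest muscles in common with *Myh7*. *Tnnt1* (chromosome 7, 4504569 to 4515975) read 157, 20.2, 30.7 and 19.7 at 5 months and 37.9, 31.4, 12.6, 53.2 and 23.7 at 20 months. *Tnni1* (chromosome 1, 135783033 to 135810989) read 106, 7.82, 16.1 and 15.4 at 5 months and 25.7, 17.95, 7.31, 38.4 and 14.5 at 20 months. Mouse X5S4299 held 5.78 times the median of the other 8 for *Tnnt1* and 6.75 times for *Tnni1*. At 20 months the order of the mice was X18S59, X18S56, X18S57, X18S60, X18S58 for *Myh7*, *Tnnt1* and *Tnni1* alike, and for *Myl2* it differed only in that X18S57 stood above X18S56. *Myl3* kept mouse X18S59 on top but had mouse X18S56 lowest.

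**Figure D1:**
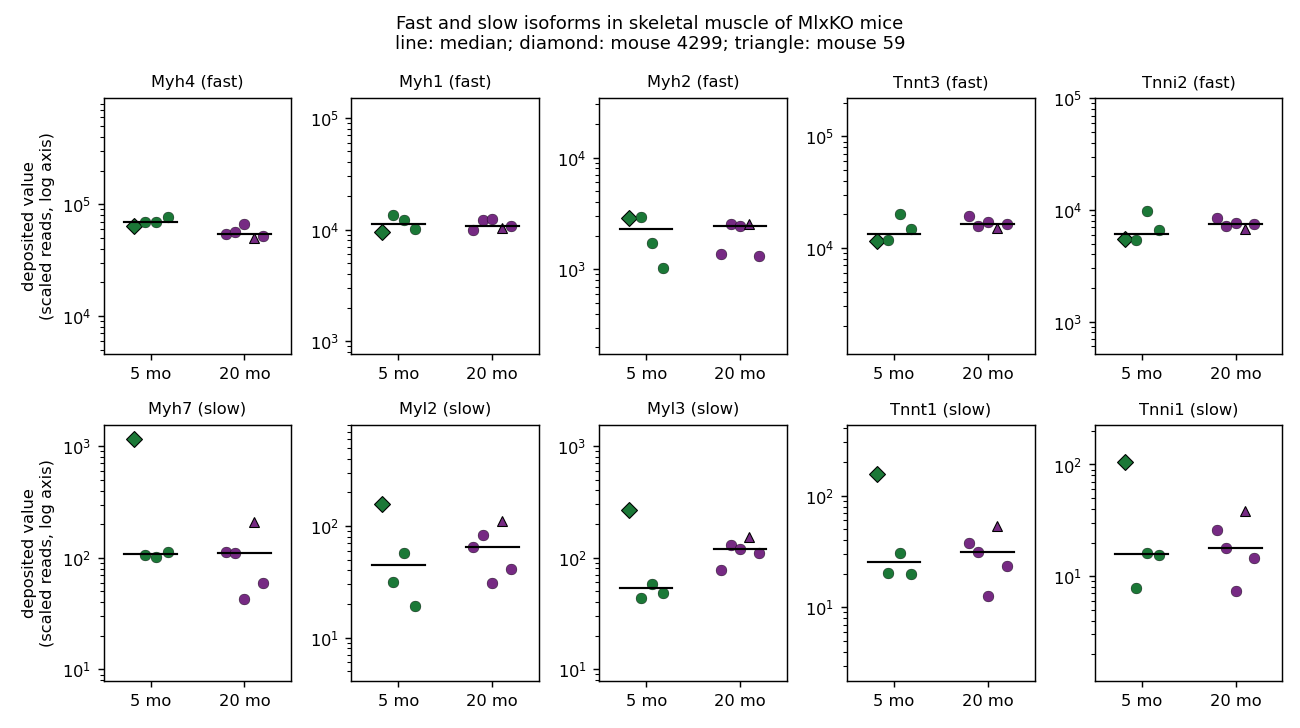
Deposited value of each fast (top) and slow (bottom) isoform in each muscle at 5 months (green) and 20 months (purple), on log axes that span the same fold in every panel, with the median as a line. Mice are marked by the final number of their label, and X5S4299 (diamond) is the highest point in all 5 slow panels, with *Myh7* at 1171 against at most 209 elsewhere, and in no fast panel.

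In mouse X5S4299 the 5 slow isoforms were each the highest of the 9 muscles, and 0 of the 5 fast isoforms were. Of all 12720 genes tested, 10.4% were highest in this muscle. Its *Myh4* was 1.04 times the median of the other 8, and *Myh1* and *Tnnt3* were lowest there (0.831 and 0.719 times that median). The lowest values of *Myh7*, *Tnnt1* and *Tnni1* were those of mouse X18S58.

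Proportions within a sample do not depend on how the sample was scaled, so isoforms were next compared within each muscle, per length of transcript. Of the 4 heavy chains, *Myh4* made up 80.8% to 87.4% at 5 months and 79.4% to 82.7% at 20 months. *Myh1* made up 12.2%, 15.6%, 14.4% and 11.3% at 5 months and 15.1% to 16.9% at 20 months, and the ages overlapped only through mouse X5S5001. *Myh2* made up 1.14% to 3.67% and 2.001% to 4.02%. *Myh7* made up 1.46% in mouse X5S4299, 0.117% to 0.121% in the other 3 muscles at 5 months and 0.0506% to 0.322% at 20 months. The slow heavy chain was therefore a minor species everywhere, including in the animal where it was highest.

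For the troponins, *Tnni1* stood at 1.30 per 100 *Tnni2* in mouse X5S4299, at 0.0965 to 0.156 in the other 3 muscles at 5 months and at 0.0635 to 0.379 at 20 months. *Tnnt1* stood at 1.38 per 100 *Tnnt3* in mouse X5S4299, at 0.137 to 0.174 in the other 3 and at 0.0750 to 0.361 at 20 months. The slow light chains were set against their fast counterparts *Mylpf* and *Myl1*. *Myl2* per 100 *Mylpf* was 3.93 in mouse X5S4299, 0.374 to 0.7998 in the other 3 and 0.443 to 1.87 at 20 months. *Myl3* per 100 *Myl1* was 4.32 in mouse X5S4299, 0.716 to 0.900 in the other 3 and 0.983 to 2.56 at 20 months. All 4 pairs had mouse X5S4299 at the top and mouse X18S59 next. Of the 4 pairs only *Myl3* separated the ages once mouse X5S4299 was set aside. With all 9 muscles, 0 of these 8 proportions separated the ages.

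**Figure D2:**
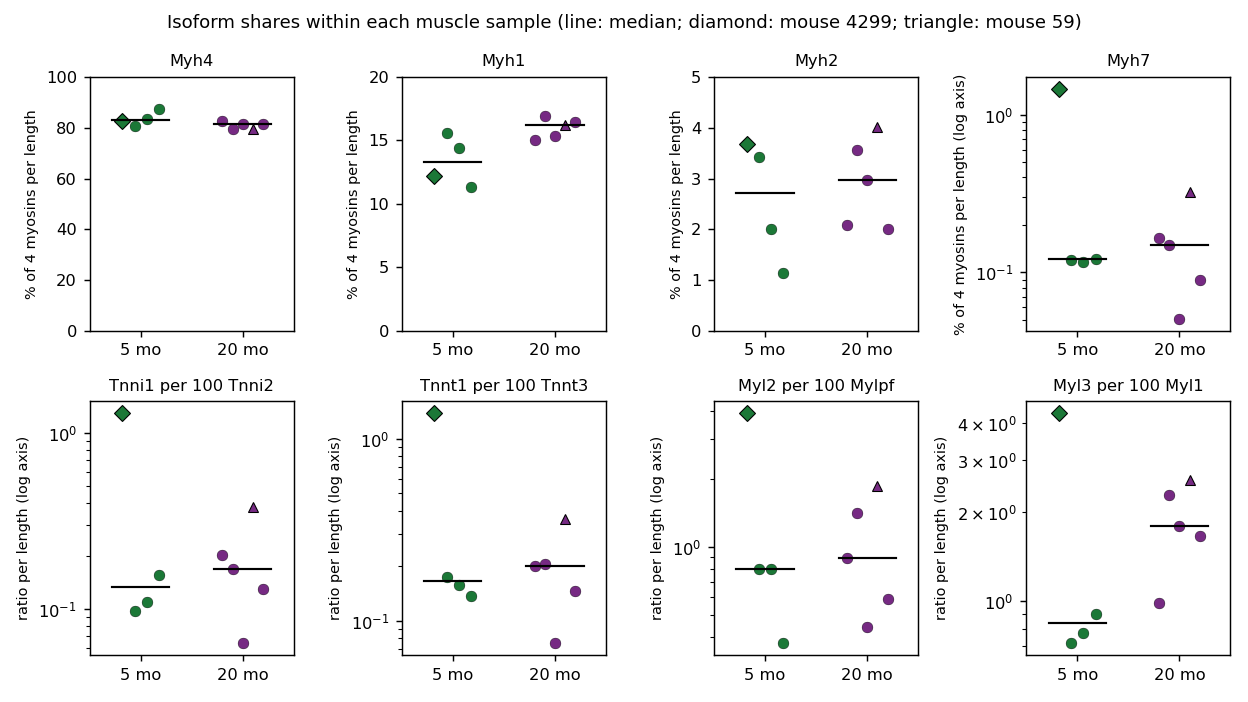
Share of each heavy chain among the 4 myosins (top) and slow isoform per 100 of its fast counterpart (bottom), per length of transcript, in each muscle, with the median as a line. The *Myh7* panel and the lower row have log axes. Mouse X5S4299 (diamond) and then mouse X18S59 (triangle) lead the *Myh7* panel and all 4 slow-to-fast pairs, whereas *Myh4* stays between 79.4% and 87.4% in every muscle.

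Whether the isoforms changed with age was tested with limma on log2(value + 1), fitted over all genes of muscle. Of the 10 isoforms, 0 passed at an adjusted p of 0.05, whereas 19.3% of the 12720 genes tested did (9.13% higher and 10.1% lower at 20 months). None had an unadjusted p under 0.05, and 0 of the 10 had values that did not overlap between ages, against 17.3% of all genes. On the recovered reads, edgeR called 1 of 10 and DESeq2 called 1 of 10, both *Myh4*, where 19.3% and 25.3% of all genes were called, and 2 and 1 isoforms had an unadjusted p under 0.05.

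*Myh4* averaged 70085 ± 5691 (SD, n = 4) in the younger muscles and 55790 ± 6261 (SD, n = 5) in the older ones. On the log2 scale the change was -0.33, with a standard error of 0.168 and a 95% interval of -0.70 to 0.03 (limma adjusted p = 0.170). Its adjusted p was 0.0302 by edgeR (log2 change -0.33) and 0.00502 by DESeq2 (-0.35), and an exact two-sided permutation test of its log2 values alone gave p = 0.0238, unadjusted for the 10 isoforms. The size of the difference was alike in all 3 fits, and the call depended on the tool. The other fast isoforms had narrow intervals around small differences: *Myh1* -0.02 (-0.34 to 0.30), *Tnni2* 0.18 (-0.20 to 0.56), *Tnnt3* 0.24 (-0.15 to 0.63) and, less narrowly, *Myh2* -0.01 (-0.71 to 0.70). *Tnni2* passed only without mouse X5S5238, where its log2 change was 0.37 (limma adjusted p = 0.0473) and 30.1% of all genes were called.

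The slow isoforms had wide intervals. The log2 change was -1.07 for *Myh7* (-2.55 to 0.41, limma adjusted p = 0.271), 0.60 for *Myl3* (-0.36 to 1.56, adjusted p = 0.339), 0.29 for *Myl2* (-0.86 to 1.43), -0.38 for *Tnnt1* (-1.59 to 0.84) and -0.25 for *Tnni1* (-1.61 to 1.12). A mean for 5 months carries little meaning here, since with mouse X5S4299 *Myh7* averaged 373 ± 532 (SD, n = 4) and 106.7 ± 4.97 (SD, n = 3) without it. The older muscles averaged 107 ± 65.0 (SD, n = 5). Without this muscle the change of *Myh7* was -0.21 (-1.08 to 0.66), and *Tnnt1* and *Tnni1* turned to 0.30 (-0.49 to 1.09) and 0.50 (-0.42 to 1.42). With all 9 muscles the tools also differed in size: edgeR and DESeq2 gave -1.81 and -1.82 for *Myh7*, -0.84 and -0.86 for *Tnnt1*, -0.81 and -0.82 for *Tnni1* and 0.18 and 0.16 for *Myl3*. Of these only *Myh7* had an unadjusted p under 0.05, by edgeR (adjusted p = 0.109), and DESeq2 gave it no p.

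*Myl3* was the isoform whose call rested on that muscle. Without mouse X5S4299 it averaged 49.8 ± 7.57 (SD, n = 3) in the younger muscles and 118 ± 27.7 (SD, n = 5) in the older ones, with a log2 difference of 1.203 (0.79 to 1.62, limma adjusted p = 0.00560), higher in 5 of 5 mice. Mouse X5S4299 was singled out after its high slow isoforms, *Myl3* among them, were seen. The interval and p of the fit without it carry that choice. In that fit 13.2% of all genes and 1 of the 10 isoforms were called. The values of *Myl3* and *Myh4* did not overlap between ages, 2 of 10 isoforms, where the same held for 21.7% of all genes. *Myl2*, the other slow light chain, was 0.84 higher at 20 months in the same fit (-0.06 to 1.75, limma adjusted p = 0.181) and did not pass.

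**Figure D3:**
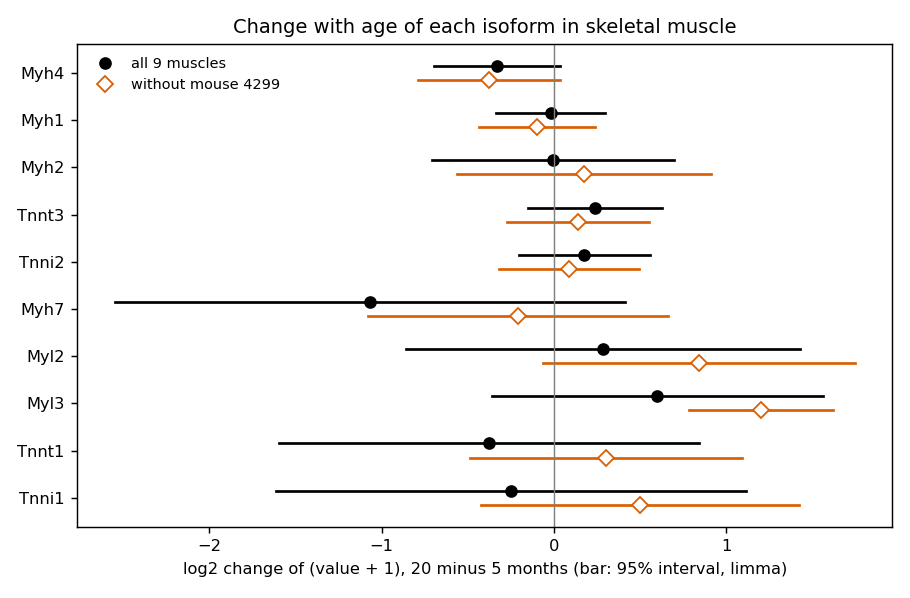
Log2 change of each isoform from 5 to 20 months with its 95% interval from limma, over all 9 muscles (black) and without mouse X5S4299 (orange). With all muscles every interval spans 0, and without mouse X5S4299 only that of *Myl3*, 0.79 to 1.62, does not.

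The pattern of *Myh7* over the 9 muscles was compared with that of every other gene tested. The 5 genes with the closest pattern, by Pearson r of log2(value + 1), were *Atp2a2* (0.987), *Tpm3* (0.958), *Tnnc1* (0.935), *Enox2* (0.912) and *Cd83* (0.900). *Atp2a2* encodes the calcium pump of slow and cardiac muscle, *Tpm3* the slow tropomyosin and *Tnnc1* the slow troponin C, whereas *Enox2* and *Cd83* are in none of the gene lists used here. Since mouse X5S4299 dominated these coefficients, they were computed again over the other 8 muscles. *Atp2a2* (0.938), *Tnnc1* (0.826) and *Tpm3* (0.802) stayed high, and *Enox2* (0.511) and *Cd83* (0.546) did not. *Tnnc1* had the 20-month mice in the same order as *Myh7*, with 35.2 in mouse X18S59 and 6.51 in mouse X18S58. These points are single libraries of few mice and the coefficients are descriptions.

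Mouse X5S4299 was then set against the other 8 muscles for every gene that read at least 5 there, a comparison made after its values were seen. The genes that exceeded the highest of the other muscles most were *Myh7* (5.595 times), *Atp2a2* (4.69), *Sln* (3.63), *Tpm3* (3.35), *Tnnt1* (2.95), *Tnnc1* (2.77) and *Tnni1* (2.77), each of them a slow isoform or a member of the list of further slow-fibre genes below. *Sln* encodes sarcolipin, an inhibitor of the calcium pump. Of all 12720 genes tested, 4 passed 3 times the highest other muscle, the first 4 of these. Mice X5S5001, X5S5238 and X18S60 had 63, 29 and 7 such genes of their own and the other 5 had 0. *Atp2a2* read 871 in mouse X5S4299 and 64.4 to 186 elsewhere, and *Tpm3* read 426 and 53.1 to 127. Of the other genes counted among slow-fibre genes, *Myl6b* (1.70 times the median of the other 8) and *Myoz2* (1.59 times) were also highest here. The rest were not: *Casq2* was 0.941 times that median, *Mb* 0.756 times, *Mybpc1* 0.771 times, *Csrp3* 0.990 times and *Ankrd2* 0.984 times. *Pln* was 0.971 times and *Myh7b* 1.10 times. That median mixes the ages. Against the other 3 muscles at 5 months (mean ± SD), *Casq2* was higher, at 33.1 against 19.3 ± 1.99. *Csrp3* (441 against 1011 ± 192) and *Ankrd2* (592 against 989 ± 160) were lower, and *Mb* was 2862 against 2919 ± 806. The summed value of 5 tendon markers was 539 in this muscle and 501 to 645 in the other 3 at 5 months. That of 6 fibroblast markers was 1161 against 1018 to 1447, so neither sum set it apart. *Fmod* (239) and *Thbs4* (290) made up most of the tendon sum. Of the other tendon markers, *Scx* was lowest in this muscle (0.387 times the median of the other 8) and *Mkx* highest (2.56 times).

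**Figure D4:**
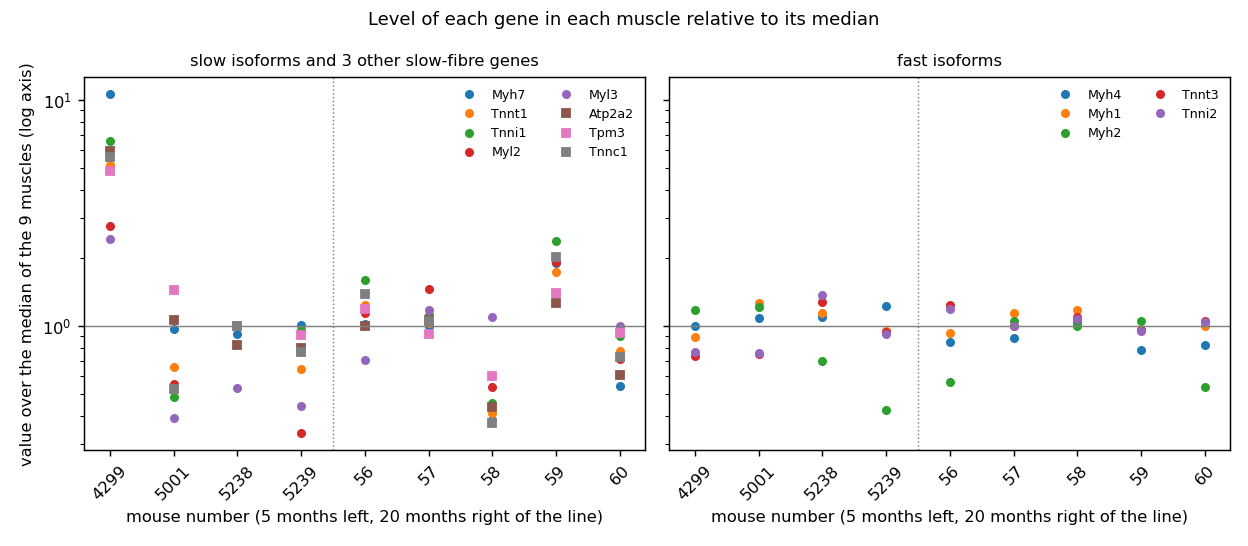
Value of each gene in each muscle divided by its median over the 9 muscles, on a log axis, for the slow isoforms with *Atp2a2*, *Tpm3* and *Tnnc1* (left) and the fast isoforms (right). The slow genes lie together above 2 in mouse X5S4299 and mostly below 1 in mouse X18S58, and the fast isoforms stay nearer to 1 apart from *Myh2*.

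The 10 pairs of slow isoforms correlated across the 9 muscles at 0.558 to 0.973 (median 0.8001), and at -0.0456 to 0.930 (median 0.678) without mouse X5S4299. The 10 fast pairs did not move as a block, at -0.521 to 0.984 (median -0.0347), and their highest value was that of the troponins *Tnnt3* and *Tnni2*. The genes outside the 10 isoforms whose pattern was closest to *Myh4* were *Pwp2* (0.962), *Kansl3* (0.941), *Gripap1* (0.936), *Zcchc8* (0.929) and *Zbtb43* (0.919), none of them in these lists.

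The wider fibre type program was read in a list of 11 further fast-fibre genes and 13 further slow-fibre genes. Of the fast ones 0 of 11 passed between ages (median log2 change 0.07, against 0.02 over all genes tested). The most abundant, *Atp2a1*, the fast calcium pump, averaged 44317 ± 2609 (SD, n = 4) in the younger muscles and 35772 ± 2976 (SD, n = 5) in the older ones. Its change was -0.31 on the log2 scale (limma adjusted p = 0.149). Its values did not overlap between ages. By edgeR 2 of the 11 passed, *Atp2a1* and *Tpm1*, and by DESeq2 3, these and *Myh13*. By limma without mouse X5S5238 3 passed. Of all genes 19.3%, 25.3% and 30.1% did in these fits, in that order. The call of *Atp2a1*, like that of *Myh4*, thus depended on the tool.

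Of the 13 slow ones 5 passed, 2 higher and 3 lower at 20 months (38.5% of the list, beside 19.3% of all genes, with a median of -0.35 over the list). *Csrp3*, a muscle LIM protein of the Z-disc, averaged 869 ± 325 (SD, n = 4) in the younger muscles and 309.8 ± 157 (SD, n = 5) in the older ones, and fell by 1.51 on the log2 scale (limma adjusted p = 0.0124). *Ankrd2*, an ankyrin-repeat protein of the sarcomere, fell by 1.10 on the log2 scale (limma adjusted p = 0.0217) and the heavy chain *Myh7b* fell by 0.56 (adjusted p = 0.0233). *Casq2*, the slow and cardiac calsequestrin that stores calcium, rose from 22.7 ± 7.11 (n = 4) to 43.1 ± 9.74 (n = 5), a change of 0.90 (limma adjusted p = 0.0147), and *Mb*, myoglobin, rose by 0.49 (adjusted p = 0.0354). The most abundant, *Mybpc1*, changed by 0.09 (adjusted p = 0.661). The genes of this list that passed thus went in both directions with age. *Atp2a2*, *Tpm3* and *Tnnc1*, whose patterns outside the 10 isoforms were closest to that of *Myh7*, did not pass (limma adjusted p = 0.287, 0.237 and 0.706). The calls of *Csrp3* and *Casq2* held in 19 of 19 alternative fits, those of *Ankrd2*, *Myh7b* and *Mb* in 17, 16 and 8. *Ankrd2* lost its call without mouse X18S60 and *Myh7b* without X5S5239 or X18S58, and both lost it with no filter on low values.

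Of 6 genes of developing muscle, 5 were tested and 1 passed: *Actc1*, cardiac actin, the most abundant of them, fell from 91.5 ± 40.3 (n = 4) to 37.9 ± 6.99 (n = 5; log2 change -1.16, limma adjusted p = 0.0134), and like the slow isoforms was highest in mouse X5S4299 (136). The embryonic and neonatal heavy chains *Myh3* and *Myh8* read at most 12.7 and 5.97 in any muscle. *Myh3* was 0.71 higher on the log2 scale at 20 months and did not pass (limma adjusted p = 0.0695). It passed in some alternative fits, among them DESeq2, where 25.3% of all genes were called. The fits of all 27 samples also called it, with 2089 and 2105 of 15572 genes. Of 22 regulators of fibre type and myogenesis 5 passed, 2 higher and 3 lower, 22.7% of the list and near the 19.3% of all genes. *Mef2c*, the most abundant of them, a transcription factor of muscle genes, averaged 439 ± 57.1 (SD, n = 4) in the younger muscles and 809.7 ± 32.1 (SD, n = 5) in the older ones. It rose by 0.89 on the log2 scale (limma adjusted p = 0.000983), higher in 5 of 5 mice, and *Tbx15*, a factor known from fast fibres, rose by 0.43 (adjusted p = 0.0230). *Rcan1*, an inhibitor of calcineurin that calcineurin signalling induces, fell by 1.92 (limma adjusted p = 0.0149), *Myog* fell by 1.10 (adjusted p = 0.0349) and *Ppard* fell by 0.71 (adjusted p = 0.00502). Of the 19 alternative fits, *Mef2c* and *Ppard* passed in 19, *Rcan1* in 18, *Tbx15* in 15 and *Myog* in 12. Among the 17 that did not pass, *Prox1*, a factor known to promote the slow program, read 4.23 in mouse X5S4299 and 1.16 to 3.06 in the other 8. These values rest on 55 reads and on 16 to 46. *Eya3* was also highest in that muscle. *Eya1*, *Nfatc2*, *Ppargc1a* and *Vgll2* were instead lowest there, at 0.734, 0.471, 0.660 and 0.581 times the median of the other 8. Of all 12720 genes tested, 10.4% were highest and 11.45% lowest in that muscle.

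The ages also differed in genes of other cells and of stress, and their part in the isoforms' values was not tested. Of all genes 10.1% were called lower and 9.13% higher at 20 months. Of the 9 stress genes 8 fell, with *Hspa1b* (-4.82, limma adjusted p = 0.00624) and *Hspa1a* (-4.36, adjusted p = 0.00766) the most and *Jun*, the most abundant by median, not passing (-0.54, adjusted p = 0.0658). Fibroblast markers fell in 5 of 6 genes, with log2 changes of -1.52 for *Col1a2*, -1.51 for *Col1a1* and -0.68 for *Dcn*, the most abundant, and their sum was 1018 to 1447 at 5 months and 525 to 898 at 20 months. Macrophage markers fell in 4 of 6 (*Cd68* -1.82, *Cd163* -1.35 and *Csf1r*, the most abundant, -1.03), with sums of 86.2 to 160 and 36.3 to 73.6. Of 5 tendon markers 2 fell (*Thbs4* -1.40 and *Fmod*, the most abundant, -1.15) and 1 rose (*Scx* 0.70, in 9 of 19 alternative fits), with sums of 501 to 645 and 152 to 349. Of the stress genes *Dnajb1*, *Fos* and *Egr1* passed in 13, 13 and 14 of the 19 alternative fits. *Dcn*, *Pdgfra*, *Mrc1* and *Cd163* passed in 13, 12, 11 and 17, and the other genes that fell in these lists in 19.

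The remaining lists had 1 or 2 calls each or 0, where 10.1% of all genes were called lower. Of 5 Schwann cell markers 2 fell (*Prx* -0.83 and *Sox10* -0.70). Of 5 endothelial markers 1 fell (*Pecam1* -0.44, in 7 of 19 alternative fits), and *Cdh5*, the most abundant, did not pass (-0.24). Of the 4 satellite cell markers tested 1 fell (*Sdc4*, also the most abundant, -1.03), and of 6 adipocyte markers 1 fell (*Cfd*, also the most abundant, -1.203). Their sums overlapped between ages except for satellite cells, at 65.9 to 157 and 40.7 to 61.8. *Sdc4* made up most of that sum. *Pax7*, another marker of that list, was 0.48 higher on the log2 scale at 20 months and did not pass (limma adjusted p = 0.111). In the fits of all 27 samples *Pax7* (higher) and *Myf5* (lower) passed as well. Of the 5 liver markers (*Alb*, the most abundant, at -3.02), the 2 heart markers tested (*Sbk2*, the most abundant, at -0.24) and the 8 muscle identity genes (*Acta1*, the most abundant, at -0.05) 0 passed. In mouse X5S5001, where stress genes were highest, the slow isoforms summed to 209, beside 264 in mouse X5S5238 and 214 in mouse X5S5239. Without mouse X5S5001 0 of the 10 isoforms passed by limma, where 1518 of 12552 genes did. With every muscle kept 0 of the 10 passed too, so this count could not fall. The part of stress in the isoforms' values was not tested.

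In adipose tissue, fibre isoforms were read at a small fraction of their level in muscle. The summed fast isoforms read 4.05, 225, 342 and 411 at 5 months, in X5F4299, X5F5001, X5F5238 and X5F5239, and 11.4, 172, 46.3, 22.97 and 18.9 at 20 months, in X18F36, X18F37, X18F38, X18F39 and X18F40. The 5-month labels carry the same final numbers as in muscle and were taken as the same mice. Their adipose tissue held 0.00435%, 0.220%, 0.301% and 0.373%, in the same order, of the fast isoform value of their own muscle. The heavy chains stood in proportions near those of muscle, with *Myh4* at 76.7% to 87.0% of the 4 per length, beside 79.4% to 87.4% in muscle. The muscle creatine kinase *Ckm* went with them, at 0.989, 49.2, 64.7 and 78.1 at 5 months. *Acta1* did not, at 323, 104, 428 and 403, and X5F4299 held 323 of *Acta1* with hardly any fast isoform.

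The slow isoforms summed to 0.358 to 6.58 in adipose tissue, on 12 to 178 reads, and *Tnnt1* was read in all 9 (0.269 to 2.82). The mouse of X5S4299, highest for slow isoforms in muscle, had 0.830 in adipose tissue. Of the 5 fast isoforms tested between ages in adipose tissue 0 passed, where 19.1% of 14005 genes did. Their log2 changes were -1.13 (*Myh2*) to -2.02 (*Myh4*, 95% interval -4.96 to 0.92), and limma adjusted p ran from 0.189 to 0.368. Without X5F4299, the lowest at 5 months, all 5 differences were larger, from -1.78 (*Myh2*) to -3.53 (*Myh4*), with limma adjusted p of 0.0517 to 0.0597. With sample weights all 5 changed sign, to 0.49 (*Myh2*) to 1.79 (*Myh4*), and did not pass. With all 9 samples weighted equally none had an unadjusted p under 0.05 by limma or edgeR, and 2 had by DESeq2. After adjustment 0 of 5 passed by either tool, where edgeR called 19.2% and DESeq2 31% of all genes. The slow isoforms were too low to be tested there.

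**Figure D5:**
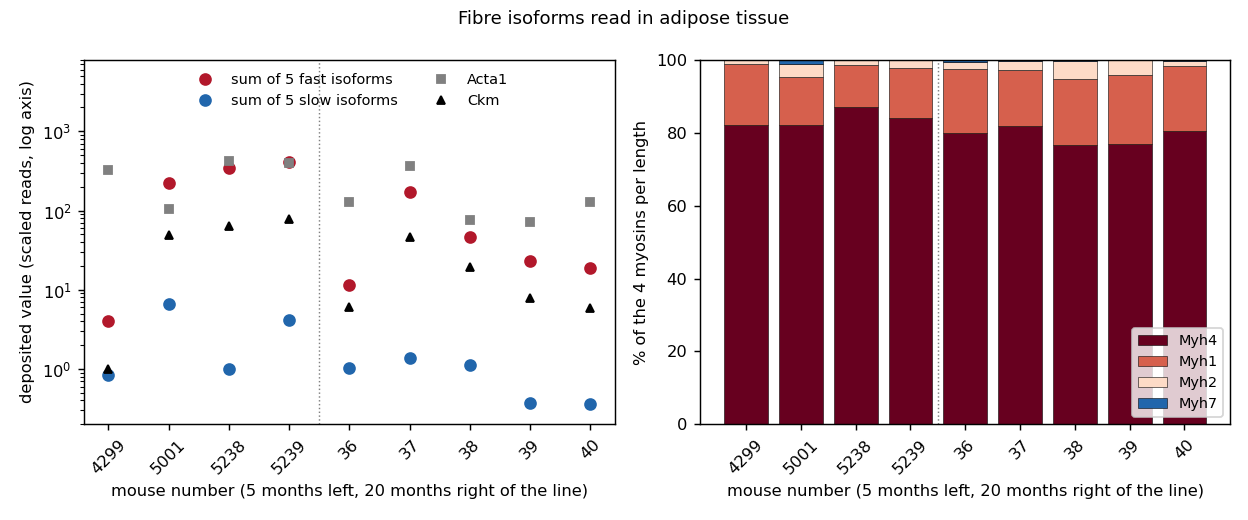
Summed fast and slow isoforms with *Acta1* and *Ckm* in each adipose tissue, as deposited values on a log axis (left), and the share of each heavy chain among the 4 myosins per length (right). The fast sum ranges from 4.05 to 411 at 5 months and from 11.4 to 172 at 20 months, while *Myh4* is 76.7% to 87.0% of the myosins in every sample.

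In liver, *Myh1*, *Myh2*, *Myh4*, *Tnnt3*, *Myl2* and *Tnni1* were listed at 0 in all 9 samples, where 3 reads would give 0.1503 to 0.2399. *Tnni2* had at most 5 reads and *Myh7* and *Myl3* at most 1. *Tnnt1*, the slow troponin T, was read in all 9 livers at 0.114 to 1.996 (2 to 28 reads), a level that overlapped its range in adipose tissue and lay below the lowest muscle, 12.6.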

How the data were processed

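Total RNA of 27 samples was sequenced from directional libraries. By its title the deposited table is from CLC Genomics Workbench, which the paper's methods name; the genome and annotation used there are not given in the sources used here, and builds named in the labels are GRCm38.p6 and mm10. The deposited values are a signal, reads per gene scaled for library size and by a further factor in each sample. Dividing by the value of 1 read gave whole reads for 100% of values (tolerance 0.01 read). Designed for CPM, the tests were kept on log2(value + 1).

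Ages were compared within a tissue by limma 3.58.1 (R 4.3.3) with a variance trend, keeping genes that reached a value of 1 in 4 or more samples, and p-values were adjusted by Benjamini and Hochberg. edgeR 4.0.16, DESeq2 1.42.0, other scalings, filters, weights and leaving out each sample were alternatives, and the scripts were tested on simulated data. At 5 months the labels repeat the same mouse numbers in all 3 tissues, and the correlation within a mouse was 0.101. The isoforms and gene lists were chosen with earlier results of these data known. All 10 isoforms are named. Of each list the text names the 2 largest changes that passed, the most abundant gene and genes listed at 0, apart from 1 gene that is not reported here. Other names were chosen after values were seen. Lengths, coding sequence and shared words (50 bases) came from GENCODE vM21 and gene positions from RefSeq, both GRCm38.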

Additional observations from a re-analysis of the deposited data

Results flagged for a closer look

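In groups of 4 to 10 samples, a sample was singled out when its gap to the nearest other sample, divided by the group's range, exceeded Dixon's 95% critical value. Chance flags about 1 in 20 groups. Of 38 groups of values examined, 10 held such a sample, and 9 of these were the muscle of mouse X5S4299 among the 4 at 5 months. Its *Myh7* value of 1171, *Myl3* value of 266.9, *Tnnt1* value of 157.1 and *Tnni1* value of 106.3 stood apart, with gaps of 0.991, 0.933, 0.92 and 0.916 of the range. So did its proportions per length: *Myh7* at 1.465% of the 4 myosins, *Tnni1* at 1.298 per 100 *Tnni2*, *Tnnt1* at 1.383 per 100 *Tnnt3*, *Myl2* at 3.932 per 100 *Mylpf* and *Myl3* at 4.317 per 100 *Myl1*. These 9 values come from 1 library and are not independent of each other. In adipose tissue at 20 months, X18F37 stood apart with a summed fast isoform value of 171.6.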

How the results depend on the processing

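The isoforms were refitted in muscle under 19 alternatives each. Of these 190 fits 4 passed (*Myh4* by edgeR and DESeq2, *Tnni2* without mouse X5S5238, *Myl3* without mouse X5S4299), 185 did not and 1 had no adjusted p (*Myh7* by DESeq2). Signs turned for small changes. *Myh1* (-0.02) became 0.0594 when rescaled without the 20 most abundant genes and 0.0676 with sample weights, and ranged from -0.0992 to 0.0684 when each mouse was left out. *Myh2* (-0.01) became 0.0723 and 0.21 in the same settings and ranged from -0.32 to 0.19. *Myl2* (0.29) became -0.013 by edgeR and -0.0265 by DESeq2 and ranged from -0.15 (without mouse X5S5239) to 0.84. *Tnnt1* ranged from -0.67 to 0.30 (without mouse X5S4299), and *Tnni1* from -0.70 to 0.50 (without mouse X5S4299), with 0.05 without mouse X18S58. In adipose tissue, sample weights gave 1.25 (*Myh1*), 0.49 (*Myh2*), 1.79 (*Myh4*), 1.78 (*Tnnt3*) and 1.09 (*Tnni2*), whereas without X5F4299 they ran from -1.78 to -3.53. *Myh2* passed there in 1 fit of all 27 samples without a mouse term (limma adjusted p = 0.0475), where 5270 of 15572 genes were called. The causes were not tested.

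Over all genes, 2451 were called in muscle, 1507 with no filter on low values, and 1158 to 3796 when each mouse was left out (1552 without X18S57, 1352 without X18S58, 1158 without X18S60, 1518 without X5S5001, 3796 without X5S5238). In adipose tissue 2674 were called, 1525 with no filter, 8456 with sample weights, 4348 by DESeq2, 5270 in the fit of all 27 samples and 397 to 3748 with a mouse left out. In liver 2508 were called, 4454 with sample weights and 959 to 3557 with a mouse left out. With the mouse as a replicate block over all tissues the counts were 2105, 5307 and 3213, and 2089, 5270 and 3172 without the block, and 0 of the 10 isoforms passed in muscle in either. Rescaling without the 20 most abundant genes moved the share of higher calls from 47.4% to 63.6% in muscle and from 50.6% to 82.2% in liver, with a shift of the median of all genes of 0.07 and 0.16. Without transcript length, the mean proportions of isoforms at each age moved by less than the SD between mice of that age, although *Tnni1* per 100 *Tnni2* went from 1.30 to 1.94 in X5S4299, a factor that every muscle shares. Among the further gene lists, the count called varied from 2 (no filter) to 5 for slow-fibre genes, with 3 without X18S58, X18S60 or X5S5239, and from 3 (without X18S58 or X5S5001) to 9 (rescaled) for regulators. The fewest reads of an isoform in a muscle were 97, and in adipose tissue the slow isoforms had 12 to 178 reads in sum.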
